A study of Mus musculus with 3 samples.

Results

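The phagocyte NADPH oxidase was described here through 5 of its subunit genes: Cybb, Cyba, Ncf1, Ncf4 and Rac2. They were found by symbol among the 32285 genes of the deposited tables, and all 5 were present. Their molecules, counted by unique molecular identifiers (UMIs), were summed over the cells of each of 6 leukocyte lineages in each of 3 single-cell RNA-Seq libraries of mouse left lung. The labels give C57BL/6J as the strain of each library, and the donors and recipients were B6 mice that differed in their CD45 allele. The naive library came from lungs without transplantation. For the 2 transplant libraries, left lungs of CD45.2 donors were placed into CD45.1 recipients after cold ischemia (60 minutes, 4 °C) and warm ischemia (45 minutes, 28 °C), and were collected after 2 hours or 3 days of reperfusion. Cells of 2 mice were pooled per library and sorted for CD45.1, which marks recipient cells in the grafts. The labels state this sort for naive cells too, although no recipient exists there, and list 5′ and 3′ kits, whereas the methods name the 3′ kit.

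The oxidase turns NADPH and oxygen into superoxide, which phagocytes use to kill microbes and which can injure tissue after reperfusion. Its membrane core, flavocytochrome b558, pairs gp91phox, the electron-transferring chain encoded by Cybb, with p22phox, its stabilizing partner encoded by Cyba. On activation, cytosolic subunits that include the organizer p47phox (Ncf1) and p40phox (Ncf4), which binds a phosphoinositide of phagosome membranes, join the core together with a Rac GTPase. Rac2, the Rac of blood cells, also acts in actin remodelling and migration, so its message is not specific to the oxidase.

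In GRCm38 coordinates, Cybb lies at chrX:9435252-9487771, Cyba at chr8:122424776-122432930 and Ncf1 at chr5:134220053-134229625, each on the minus strand. Ncf4 lies at chr15:78244801-78262580 on the plus strand, and Rac2 at chr15:78559167-78572783 on the minus strand. Introns take up 46.7 kb of Cybb, 7.12 kb of Cyba, 5.91 kb of Ncf1, 15.8 kb of Ncf4 and 10.5 kb of Rac2. Promoter sequences, from 250 bases before to 50 bases after the gene start, are shown for the membrane pair and for the organizer, since Cybb and Ncf1 ranked highest in different phagocytes. They are from RefSeq (GRCm38.p6), run 5′ to 3′ on the minus strand, and cover chrX:9469275-9469574 for Cybb, chr8:122432891-122433190 for Cyba and chr5:134229576-134229875 for Ncf1. The Cybb window lies inside the gene span given above, since that span also takes in an annotated transcript that starts farther upstream. Capitals mark GAGGAA or its reverse complement TTCCTC, a core motif of PU.1, the myeloid transcription factor encoded by Spi1.
Cybb: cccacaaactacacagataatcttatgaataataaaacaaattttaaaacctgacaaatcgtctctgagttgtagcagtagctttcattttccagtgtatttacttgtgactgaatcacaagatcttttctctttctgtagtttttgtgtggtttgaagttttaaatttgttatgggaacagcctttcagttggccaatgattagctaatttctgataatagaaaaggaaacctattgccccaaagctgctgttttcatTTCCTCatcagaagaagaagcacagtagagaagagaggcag
Cyba: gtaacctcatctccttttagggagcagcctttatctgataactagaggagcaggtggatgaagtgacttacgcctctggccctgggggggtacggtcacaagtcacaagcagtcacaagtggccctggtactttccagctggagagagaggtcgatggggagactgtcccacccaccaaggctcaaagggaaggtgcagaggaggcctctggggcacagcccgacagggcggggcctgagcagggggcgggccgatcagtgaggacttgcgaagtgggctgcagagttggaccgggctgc
Ncf1: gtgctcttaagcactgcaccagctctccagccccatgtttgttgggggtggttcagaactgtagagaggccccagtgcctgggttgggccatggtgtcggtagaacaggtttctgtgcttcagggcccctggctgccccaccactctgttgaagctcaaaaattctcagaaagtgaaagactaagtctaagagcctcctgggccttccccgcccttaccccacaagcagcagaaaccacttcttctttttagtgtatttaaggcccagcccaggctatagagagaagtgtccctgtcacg
The motif, searched on both strands, occurred 1 time in the Cybb window, beginning 9 bases after the gene start, and 0 times in the windows of Cyba and Ncf1. It was present in 9289 of 32851 promoters of this length (28.3%). Ncf4 and Rac2 are named only.

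After the filters on cells, 2422 naive, 10283 2-hour and 8324 3-day cells remained, with medians of 7298.5, 878 and 5716.5 UMIs per cell. The 2-hour library was thus much shallower per cell than the others. Of the cell barcodes, 8 were shared by the naive and 2-hour libraries, 1 by the naive and 3-day libraries and 23 by the 2-hour and 3-day libraries. Lineages were named from marker genes, and the names neutrophil, monocyte, macrophage, B, T and NK cell below stand for cells that resembled that type. Different clusters held the same lineage in each library. Neutrophils numbered 388, 4024 and 2259 cells in the naive, 2-hour and 3-day libraries, or 16%, 39.1% and 27.1% of kept cells. Monocytes numbered 141, 452 and 1222 cells, B cells 555, 1418 and 1904, T cells 576, 2475 and 709, and NK cells 516, 1051 and 326. Monocytes of the naive and 2-hour libraries lay almost wholly in clusters named from nonclassical markers (137 and 450 cells). The classical markers Vcan and F13a1 were also among the top genes of both clusters, so classical monocytes may be included in them. At 3 days 769 monocytes lay in a classical and 434 in a nonclassical cluster. With the members and the genes of the lists below left out of the clustering, a cluster with nonclassical markers held 305 2-hour cells. A cluster named from plasmacytoid dendritic cell markers then held 209 2-hour cells, against 65 in the main clustering. Dendritic cells may therefore also be included among the 2-hour monocytes. Naive macrophages were mainly a cluster with alveolar markers (102 of 107 cells), and 3-day macrophages were a cluster led by Saa3 and Arg1 (633 cells) and one led by C1q genes (166 cells). Only 5 macrophages were found at 2 hours, below the minimum of 50 cells, so no level is given for them. Each condition had 1 library, so no p-value was computed. The levels are UMIs of a gene per 1000000 UMIs of the lineage (CPM), and the 95% intervals cover counting error only, not the spread between mice.

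Cybb, the catalytic subunit, was highest in monocytes and macrophages of the naive and 3-day libraries. At 2 hours, when macrophages were too few for a level, it was highest in monocytes. Its level in monocytes was lower at 2 hours than in the naive library or at 3 days. Monocytes held 1570.4 CPM in the naive library (95% interval 1512.4 to 1630.1), 667 CPM at 2 hours (610 to 729) and 1531.3 CPM at 3 days (1512.6 to 1550.2). Macrophages held 1260.6 CPM in the naive library (1212.2 to 1310.4) and 1643.0 CPM at 3 days (1617.0 to 1669.3). In neutrophils the Cybb level was 161 CPM (145 to 178), 70.9 CPM (62.3 to 80.3) and 76.3 CPM (71.1 to 81.6) in the naive, 2-hour and 3-day libraries. The neutrophil levels were far below those of monocytes in each library, and the 2-hour and 3-day intervals overlapped. B cells held 146 CPM (134 to 160), 86.4 CPM (71.1 to 104) and 227 CPM (218 to 236), so that at 2 hours their interval overlapped that of neutrophils and at 3 days their level was higher. T cells held 8.43, 6.51 and 117 CPM, and NK cells 3.51, 10.2 and 65.3 CPM from 15, 11 and 129 UMIs. The T cell level was low in the naive and 2-hour libraries, with intervals that overlapped, and high at 3 days, when it exceeded the neutrophil level. That order at 3 days rested on 41 T cells rich in Cybb, described below, and without the cells of 5 or more Cybb UMIs T cells held 17.6 CPM and neutrophils 48.4 CPM.

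Cyba, the partner of gp91phox, was spread over all lineages. Its level in neutrophils was 808 CPM (771 to 846) in the naive library, 653 CPM (627 to 681) at 2 hours and 933 CPM (914 to 951) at 3 days. Monocytes held 1104.6, 1369.8 and 1441.2 CPM, and macrophages 880 CPM in the naive library and 845 CPM at 3 days. Monocytes ranked highest in each library, and the neutrophil level was lower at 2 hours than in the naive library or at 3 days. NK cells held 684, 630 and 705 CPM, B cells 365, 571 and 453 CPM, and T cells 213, 182 and 237 CPM. NK cells, in which Cybb was nearly absent in the naive and 2-hour libraries, thus held Cyba at a level near that of neutrophils, and at 2 hours those intervals overlapped (584 to 679 CPM in NK cells).

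Ncf1, which encodes the organizer p47phox, was highest of the 6 lineages in neutrophils, in which Cybb was low, and was lower in monocytes, while 3-day macrophages held both. Neutrophils held 528 CPM (499 to 559) in the naive library, 410 CPM (389 to 432) at 2 hours and 456 CPM (443 to 469) at 3 days. Monocytes held 130 CPM (114 to 148), 115 CPM (91.7 to 142) and 138 CPM (132 to 144), and macrophages 228 CPM (208 to 250) in the naive library and 397 CPM (384 to 410) at 3 days. Neutrophils ranked first of the 6 lineages in each library, the monocyte level did not differ among libraries beyond its intervals, and 3-day macrophages approached neutrophils. B cells held 90.4, 88.8 and 134 CPM, T cells 22.9, 24.1 and 48.7 CPM, and NK cells 9.13, 25.9 and 54.7 CPM. Outside the 6 lineages, a cluster with basophil or mast cell markers held the highest Ncf1 level of any named cell group, at 1287.0 CPM (1116.5 to 1476.3) in 20 naive cells, 1267.8 CPM (1044.9 to 1524.3) in 68 cells at 2 hours and 1831.2 CPM (1731.8 to 1934.8) in 112 cells at 3 days. In these cells Cybb had 2, 0 and 29 UMIs in all.

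Ncf4, which encodes p40phox, was shared by neutrophils and monocytes. Neutrophils held 241 CPM (221 to 262), 143 CPM (130 to 156) and 278 CPM (269 to 289) in the naive, 2-hour and 3-day libraries. Monocytes held 187 CPM (167 to 208), 122 CPM (97.8 to 149) and 269 CPM (262 to 277), and the intervals of these lineages overlapped at 2 hours and at 3 days. Both were lowest at 2 hours. Macrophages held 41.4 CPM (33.0 to 51.2) in the naive library and 183 CPM (174 to 191) at 3 days. B cells held 71.9, 66.2 and 101 CPM, NK cells 43.5, 31.4 and 59.8 CPM, and T cells 23.6, 15.3 and 33.2 CPM.

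Rac2, the GTPase, was high in neutrophils and NK cells and low in macrophages. Neutrophils held 711 CPM (677 to 747) in the naive library, 491 CPM (468 to 515) at 2 hours and 998 CPM (980 to 1017.4) at 3 days. NK cells held 719 CPM (694 to 745), 716 CPM (666 to 768) and 765 CPM (727 to 804), so NK cells and neutrophils did not differ beyond their intervals in the naive library, NK cells ranked first at 2 hours and neutrophils at 3 days. T cells held 424, 367 and 402 CPM, B cells 298, 339 and 386 CPM, and monocytes 250, 249 and 348 CPM. Macrophages held 87.2 CPM (74.8 to 101) in the naive library and 217 CPM (207 to 226) at 3 days. Of all Rac2 UMIs in the naive library, 34.0% were in NK cells, 27.3% in T cells and 17.7% in neutrophils. Of all Cybb UMIs in that library, 42.5% were in monocytes, 39.4% in macrophages and 5.56% in neutrophils.

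**Figure D1:**
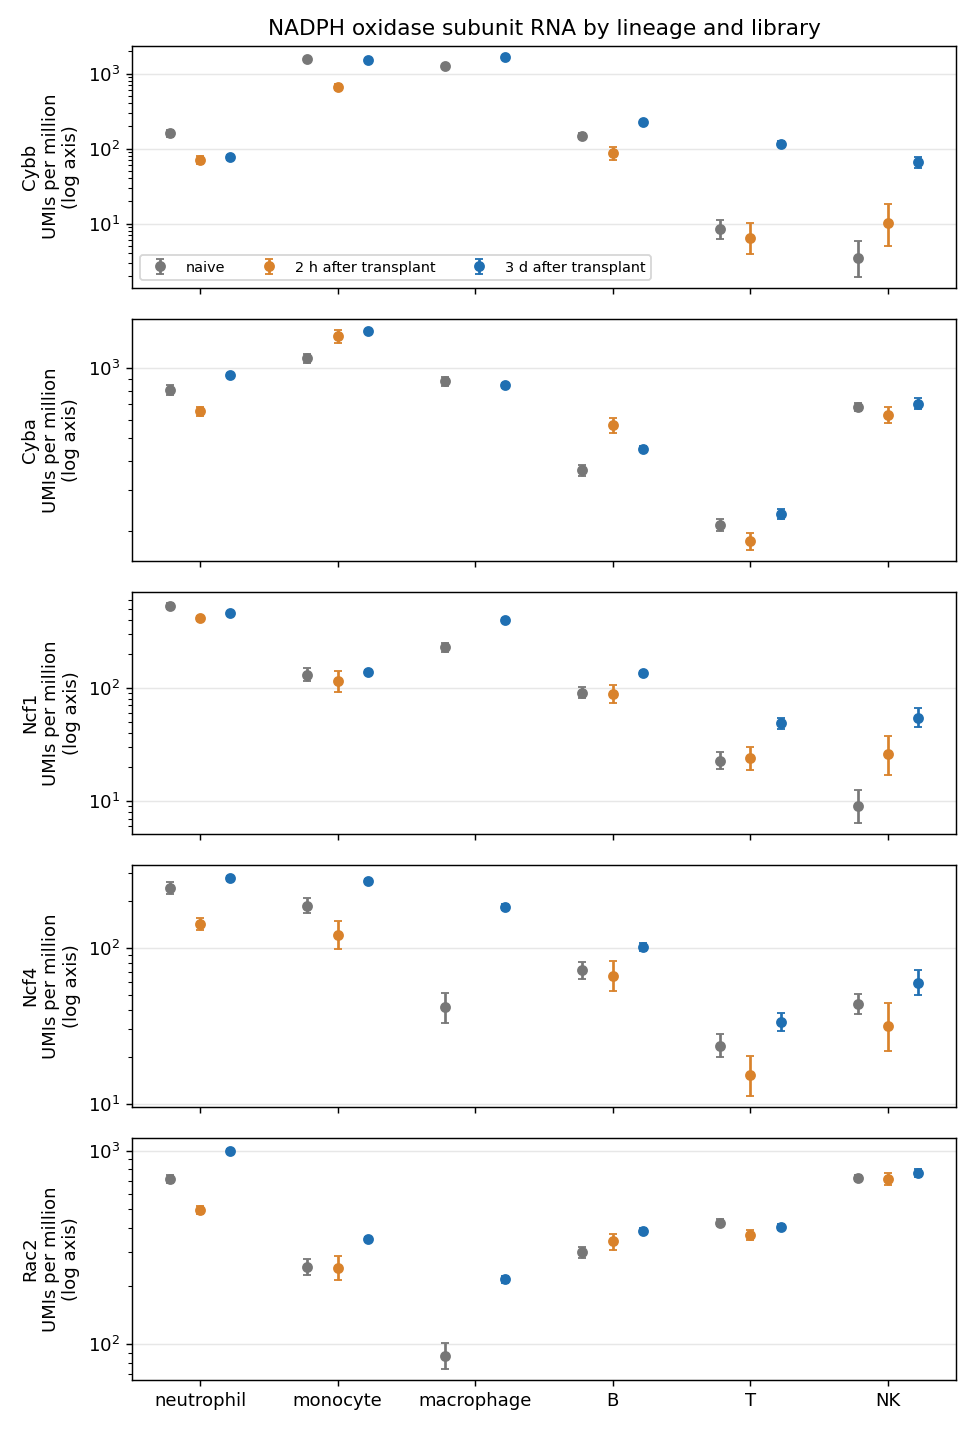
Level of each subunit gene (CPM, log axis) by lineage, with 1 point per library and bars for the 95% counting interval; there is 1 library per condition. Cybb sits highest in monocytes and macrophages, Ncf1 in neutrophils, and Rac2 is spread over neutrophils and lymphocytes.

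The first comparison between lineages asked where the subunits stood in neutrophils, the main phagocyte entering a graft, relative to T cells, which are not phagocytes. At 2 hours, 4 of 5 subunits were over 2-fold higher in neutrophils than in T cells, all but Rac2, beside 20.5% of the 7351 genes with at least 50 UMIs. The log2 ratios of levels were 3.45 for Cybb, 1.85 for Cyba, 4.09 for Ncf1, 3.22 for Ncf4 and 0.42 for Rac2, with a median of 3.22 against -0.69 over all those genes. At 3 days the log2 ratio of Cybb in neutrophils to T cells was -0.61 (95% interval -0.76 to -0.47), and that of Ncf1 was 3.23. The direction for Cybb turned when cells with 5 or more Cybb UMIs were left out of both lineages, to a log2 ratio of 1.46 (1.16 to 1.78).

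Monocytes and neutrophils differed in which subunits they held rather than in all of them. At 3 days, 1 of 5 subunits, Cybb, was over 2-fold higher in monocytes, beside 47.5% of 10105 genes, and 2 of 5, Ncf1 and Rac2, were over 2-fold lower, beside 11.8%. The log2 ratio of monocytes to neutrophils for Cybb was 3.29 in naive lungs, 3.23 at 2 hours and 4.33 at 3 days. For Ncf1 it was -2.02, -1.84 and -1.72, and for Rac2 -1.51, -0.98 and -1.52. These 3 genes kept their direction in each library, whereas Ncf4 lay near parity, at -0.37, -0.23 and -0.05. Cyba was higher in monocytes, with log2 ratios of 0.45, 1.07 and 0.63. At 3 days macrophages exceeded monocytes over 2-fold in 1 of 5 subunits, Ncf1, at a log2 ratio of 1.52, beside 12.9% of 10319 genes.

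The comparisons of time points share libraries with each other, so each is given on its own values. In neutrophils all 5 subunits were lower at 2 hours than in the naive library. The log2 ratios were -1.18 for Cybb (-1.42 to -0.94), -0.76 for Ncf4 (-0.94 to -0.58), -0.53 for Rac2, -0.37 for Ncf1 and -0.31 for Cyba, with a median of -0.53 against -0.22 over 5724 genes. Only Cybb was lower by over 2-fold, 1 of 5 members beside 22.7% of genes. Without the cells of 5 or more Cybb UMIs described below, the Cybb level was 47.4 CPM in the naive library and 68.7 CPM at 2 hours. That limit is set on Cybb itself and is reached less easily in the shallow 2-hour cells, so it lowers the naive level more. After thinning and removal of cells with other lineages' markers the log2 ratio was 0.10, from only 24 UMIs at 2 hours and 5 in the naive library. By cluster, Cybb was at 119 CPM in the main naive one, and at 60.3 and 97.6 CPM in those of 2 hours. The log2 ratio of genes between these libraries differed by intronic length, from a median of 0.22 for genes with under 5 kb of introns to -0.99 for those with 50 kb or more, and the libraries were written by different Cell Ranger versions. Relative to the median of genes of like intronic length, the log2 ratio was -0.87 for Cybb, -0.78 for Ncf4, -0.55 for Rac2, -0.49 for Ncf1 and -0.43 for Cyba. The part of the software version in these differences was not tested.

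At 3 days, neutrophils held more Rac2, Ncf4 and Cyba than at 2 hours, with log2 ratios of 1.02 (0.95 to 1.1), 0.96 (0.83 to 1.1) and 0.51 (0.45 to 0.58). For Ncf1 the log2 ratio was 0.15 (0.07 to 0.24), and for Cybb 0.11 with an interval that included 0 (-0.10 to 0.32). Of the 5 members 1, Rac2, was over 2-fold higher, beside 15% of 7687 genes, and the median of the members was 0.51 against 0.25. Rac2 stayed over 2-fold in 8 of 12 alternatives, the lowest value being 0.78 with the median of all genes subtracted. Against the naive library, Rac2 stood higher at 3 days by 0.49 on the log2 scale, Cyba and Ncf4 each by 0.21, and Ncf1 and Cybb were lower, at -0.21 and -1.08. Relative to genes of like intronic length, however, the log2 ratio was 0.17 for Rac2, -0.11 for Ncf4, -0.18 for Cyba, -0.60 for Ncf1 and -1.05 for Cybb, so that Ncf4 and Cyba turned. Without the cells of 5 or more Cybb UMIs, the Cybb log2 ratio of 3 days to naive was 0.03 (-0.28 to 0.36).

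In monocytes, Cybb was the subunit with the lowest log2 ratio of 2 hours to naive, at -1.23 (-1.38 to -1.1), followed by Ncf4 at -0.62 (-0.97 to -0.28). The values for Ncf1 (-0.18) and Rac2 (-0.01) had intervals that included 0, and Cyba was higher, at 0.31 (0.20 to 0.42). Cybb alone passed 2-fold, 1 of 5 beside 27.7% of 5767 genes, and relative to genes of like intronic length its log2 ratio was -0.83. From 2 hours to 3 days, 2 of 5 subunits, Cybb at 1.2 (1.07 to 1.33) and Ncf4 at 1.15 (0.85 to 1.47), were over 2-fold higher, beside 16.2% of 9506 genes. Rac2 was higher by 0.49, and the intervals of Ncf1 (-0.05 to 0.60) and Cyba (-0.02 to 0.17) included 0. Since most 3-day monocytes lay in the classical cluster, the comparison was repeated within the clusters with nonclassical markers, an alternative chosen after the values were seen. There Cybb was at 669 CPM at 2 hours and 2039.5 CPM at 3 days, a log2 ratio of 1.61 (1.48 to 1.74). Ncf4 was higher by 0.74 (0.42 to 1.07), which is under 2-fold. Unlike the 3-day cluster, the 2-hour cluster also had the classical markers Vcan, F13a1 and Ms4a6c among its top genes. It may also include dendritic cells in its 2-hour part, as given above. The kind of cell and the time point thus cannot be told apart in this comparison either.

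Macrophages could be compared only between the naive and 3-day libraries. There, 2 of 5 subunits were over 2-fold higher at 3 days, Ncf4 with a log2 ratio of 2.14 (1.83 to 2.48) and Rac2 with 1.31 (1.09 to 1.54), beside 13.6% of 9373 genes. Ncf1 was higher by 0.80 and Cybb by 0.38, and the interval of Cyba included 0 (-0.13 to 0.02). The naive cells lay mainly in the cluster with alveolar markers and the 3-day cells in other clusters, so the time point and the kind of macrophage cannot be told apart.

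In B cells, Cyba had a log2 ratio of 2 hours to naive of 0.64 (0.51 to 0.78) and Cybb one of -0.76 (-1.07 to -0.46), while the intervals of Ncf1 and Ncf4 included 0. Relative to genes of like intronic length these values were 0.54 for Cyba and -0.12 for Cybb. From 2 hours to 3 days, Cybb was over 2-fold higher in B cells, at 1.39 (1.12 to 1.68), the only one of 5 members beside 15.2% of 9459 genes. Without the cells of 5 or more Cybb UMIs, described below, its log2 ratio was 1.05, with an interval that reached below 2-fold (0.77 to 1.34). Relative to genes of like intronic length it was 1.05 over all B cells. Ncf4 and Ncf1 were higher over all B cells by 0.62 and 0.60, and Cyba was lower, at -0.33. In T cells, 3 of 5 members, Cybb at 4.17, Ncf4 at 1.12 and Ncf1 at 1.02, were over 2-fold higher at 3 days than at 2 hours, beside 10.2% of 8884 genes. Without 41 cells rich in Cybb, described below, the 3-day T cell level of Cybb was 17.6 CPM rather than 117 CPM. The log2 ratio of Cybb was then 1.43 (0.73 to 2.2). Ncf1 was at 42.1 CPM and Ncf4 at 25.01 CPM in the remaining 3-day T cells, against 24.1 and 15.3 CPM at 2 hours. Of these 3 members, only Cybb thus stayed over 2-fold higher without the 41 cells. In NK cells, 2 of 5, Cybb at 2.68 and Ncf1 at 1.08, were over 2-fold higher, beside 12.2% of 6516 genes. Without 4 NK cells rich in Cybb, the log2 ratio of Cybb was 1.62 (0.68 to 2.69). Rac2 differed little in these lymphocytes, with log2 ratios of 0.18, 0.13 and 0.10 in B, T and NK cells.

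**Figure D2:**
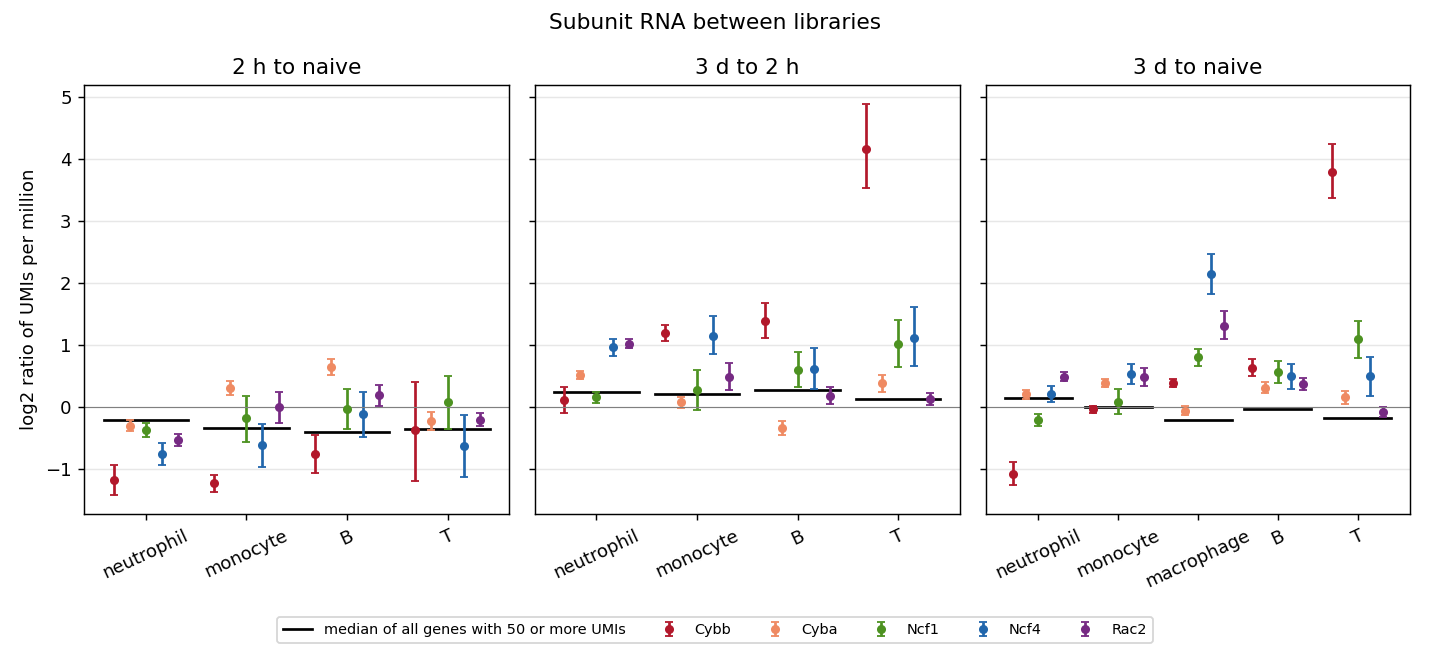
Log2 ratio of the level (CPM) of each subunit gene between libraries, by lineage, in panels for 2 hours to naive, 3 days to 2 hours and 3 days to naive. Points carry 95% counting intervals, black lines are the median of all genes with at least 50 UMIs and the grey line is 0. From 2 hours to 3 days Rac2 and Ncf4 lie at 1.02 and 0.96 in neutrophils, where the interval of Cybb includes 0, and Cybb lies at 4.17 in T cells.

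Cells with 5 or more Cybb UMIs, a limit set after the values were seen, held much of the Cybb message outside monocytes and macrophages. In T cells at 3 days, 41 of 709 cells held 86.5% of Cybb UMIs, and without them the level was 17.6 CPM. These 41 cells had a median of 16814 UMIs against 8621.5 in the other T cells. They held 2946.7 CPM of Lyz2, a lysozyme gene of myeloid cells, against 147 CPM, 1460.7 CPM of Apoe, high in macrophages, against 56.8 CPM, and 344 CPM of Ms4a6c, a monocyte gene, against 17.4 CPM. A Cd3e UMI was present in 39 of the 41, at 250 CPM against 383 CPM in the other T cells, and 12.2% were called doublets. Other myeloid genes went less clearly this way. F13a1 was at 47.7 against 6.46 CPM and C1qa at 38.8 against 8.12 CPM, but in only 4 and 2 of the 41 cells. S100a8 was at 683 against 381 CPM, and Retnlg was nearly equal, at 41.7 against 40.6 CPM. The monocyte marker Ly6c2 was lower, at 116 against 213 CPM. The T cells rich in Cybb thus carried some myeloid messages, but not all those examined, together with a T cell receptor complex message.

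In NK cells at 3 days, 4 of 326 cells held 53.5% of Cybb UMIs, and 75% of those 4 were called doublets. In B cells at 3 days, 98 of 1904 cells held 27.6%, and the level without them was 179 CPM. In naive B cells 23 of 555 held 28.8%, with 111 CPM without them, and at 2 hours no B cell reached 5 UMIs. Most Cybb UMIs of B cells therefore lay in cells with few of them, unlike those of T cells at 3 days. In naive T cells 26.5% of Cybb UMIs lay in cells with 5 or more, and at 2 hours 0%.

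In naive neutrophils, 14 of 388 cells held 72.9% of Cybb UMIs, and the level without them was 47.4 CPM. In the main naive neutrophil cluster alone (378 cells) the level was 119 CPM. The 14 cells held 1479.0 CPM of Cybb, and they also held 106154 CPM of S100a8 against 42770 CPM in the other neutrophils, 11466 CPM of Retnlg against 4171 CPM, and 720 CPM of Ly6c2, a marker shared by monocytes and immature neutrophils, against 73.0 CPM. Lyz2 was at 6500.7 CPM in them against 1301.1 CPM. The monocyte genes Ms4a6c and F13a1 had 6 and 3 UMIs, for each gene in only 1 of the 14 cells. In the other 374 naive neutrophils they had 3 and 0 UMIs. The macrophage gene C1qa had 0 UMIs in both, and 7.14% of the 14 were called doublets. Their Ncf1 level, 517 CPM, was close to the 529 CPM of the other naive neutrophils. At 2 hours 1 of 4024 neutrophils reached 5 Cybb UMIs, with 68.7 CPM without it, and at 3 days 28 of 2259 held 38.1% of the UMIs, with 48.4 CPM without them. Of those 28 cells 39.3% were called doublets, and they held 328 CPM of Ms4a6c against 8.62 CPM. Without such cells the neutrophil Cybb level was therefore highest at 2 hours rather than in the naive library, although a limit of 5 UMIs is reached less easily in the shallow 2-hour cells.

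With each cell thinned to 500 UMIs, the neutrophil Cybb level was 97.9, 62.2 and 71.7 CPM. When cells with at least 2 UMIs of other lineages' markers among the 500 were also removed, it was 47.2, 50.7 and 48.5 CPM from 5, 24 and 30 UMIs, and the order of the libraries was no longer apparent. That step left 212 of 388, 947 of 3698 and 1238 of 2259 neutrophils.

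**Figure D3:**
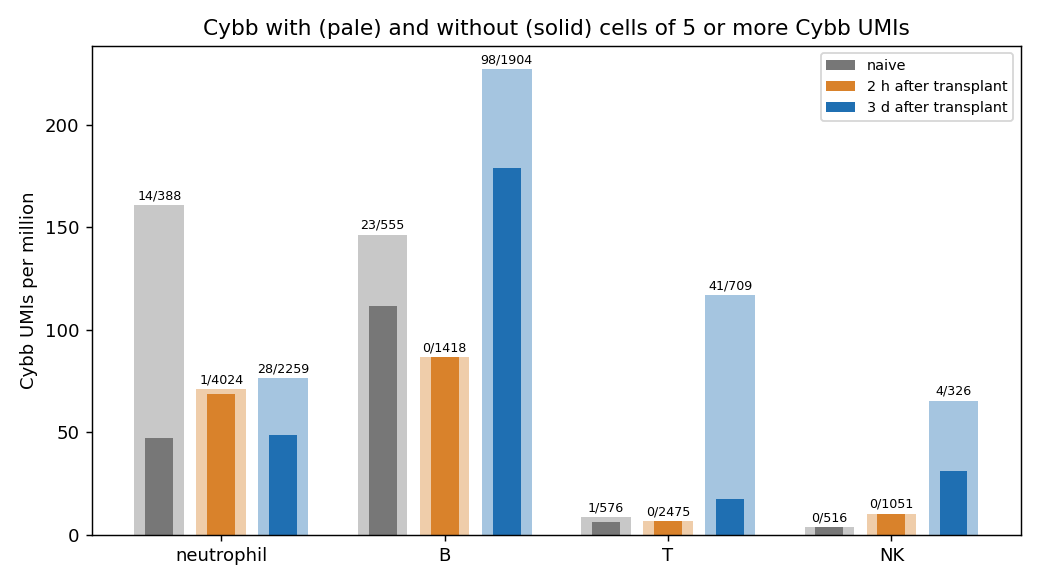
Cybb level (CPM) in neutrophils, B, T and NK cells of each library with all cells (pale bars) and without cells of 5 or more Cybb UMIs (solid bars); numbers give such cells of all cells. Leaving out 41 of 709 T cells lowers the 3-day level from 117 to 17.6 CPM, and 14 of 388 naive neutrophils from 161 to 47.4 CPM.

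Messages of other cell types were also found in T cells at 3 days. Relative to their level in neutrophils, S100a8 stood at 0.721% and S100a9 at 0.792% in T cells. Relative to monocytes, F13a1 stood at 1.88%, Lyz2 at 2.79%, Ms4a6c at 5.35% and Cybb at 7.62%. In B cells at 3 days Cybb stood at 14.8% of its monocyte level, beside 1.52% for F13a1, 1.76% for Lyz2 and 2.31% for Ms4a6c. NK cells at 3 days held S100a8 at 2.6% and S100a9 at 2.77% of the neutrophil level. Relative to monocytes they held F13a1 at 1.8%, Lyz2 at 2.66%, Ms4a6c at 4.98% and Cybb at 4.27%. Without the cells of 5 or more Cybb UMIs, the values in T cells were 1.15% for F13a1, 0.962% for Lyz2, 1.86% for Ms4a6c and 1.15% for Cybb. In B cells they were then 1.46%, 1.43% and 1.5% for these markers and 11.7% for Cybb. In NK cells they were 1.2%, 1.17% and 3.22% for the markers and 2.04% for Cybb. The ratio for Cybb in the remaining T and NK cells then lay among those of the marker genes, whereas in B cells it stayed above them. The limit was set on Cybb itself and lowers Cybb by construction, but not the markers by their own counts. The place of Cybb among the markers in T and NK cells therefore does not tell its source. At 2 hours S100a8 stood at 3.28%, 4.21% and 3.85% of its neutrophil level in T, B and NK cells. The part of free RNA in these levels was not tested.

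By the share of cells with a UMI, after thinning to 500 UMIs per cell, Cybb again ranked highest in monocytes and macrophages. In monocytes 46.1% of naive cells (37.7 to 54.7), 26.7% of 2-hour cells (22.7 to 31.1) and 54.8% of 3-day cells (52.0 to 57.6) had a Cybb UMI, and the unthinned shares were 97.2%, 59.1% and 100%. In neutrophils the shares were 3.61%, 2.95% and 3.01%, with intervals that overlapped, and 20.1%, 5.07% and 18.7% without thinning. T cells, which are not phagocytes, gave 0.521%, 0.244% and 2.82%. Their medians were 9842.5, 1128 and 8799 UMIs per cell, against 5574.5, 746 and 4443 in neutrophils. The neutrophil share was above the interval of the T cell share in the naive library (0.108 to 1.51) and at 2 hours (0.0895 to 0.530), and within it at 3 days (1.73 to 4.32), when the T cells included the 41 rich in Cybb. Thinning left out 326 of the 4024 2-hour neutrophils, 14 T cells and 3 monocytes as too shallow, and no such cell in the naive or 3-day libraries for these lineages.

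Ncf1 and Rac2 were detected in many more neutrophils than Cybb was. That does not hold Cybb up as typical of the membrane core. Cyba had more UMIs than Ncf1 in thinned neutrophils, at 169, 1184 and 1040 against 113, 766 and 574 in the naive, 2-hour and 3-day libraries. Ncf1 was seen in 23.7%, 16.5% and 19.2% of thinned neutrophils of the naive, 2-hour and 3-day libraries, against 0.521%, 0.691% and 3.39% of T cells. Without thinning the Ncf1 shares in neutrophils were 80.4%, 25.2% and 73.4%. Rac2 was seen in 26.8%, 21.6% and 38.3% of thinned neutrophils, and the 3-day interval (36.3 to 40.3) lay above the others. At least 2 of the 5 subunits were seen together in 26.5%, 15.6% and 30.4% of thinned neutrophils and in 29.8%, 23.2% and 44.0% of thinned monocytes.

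**Figure D4:**
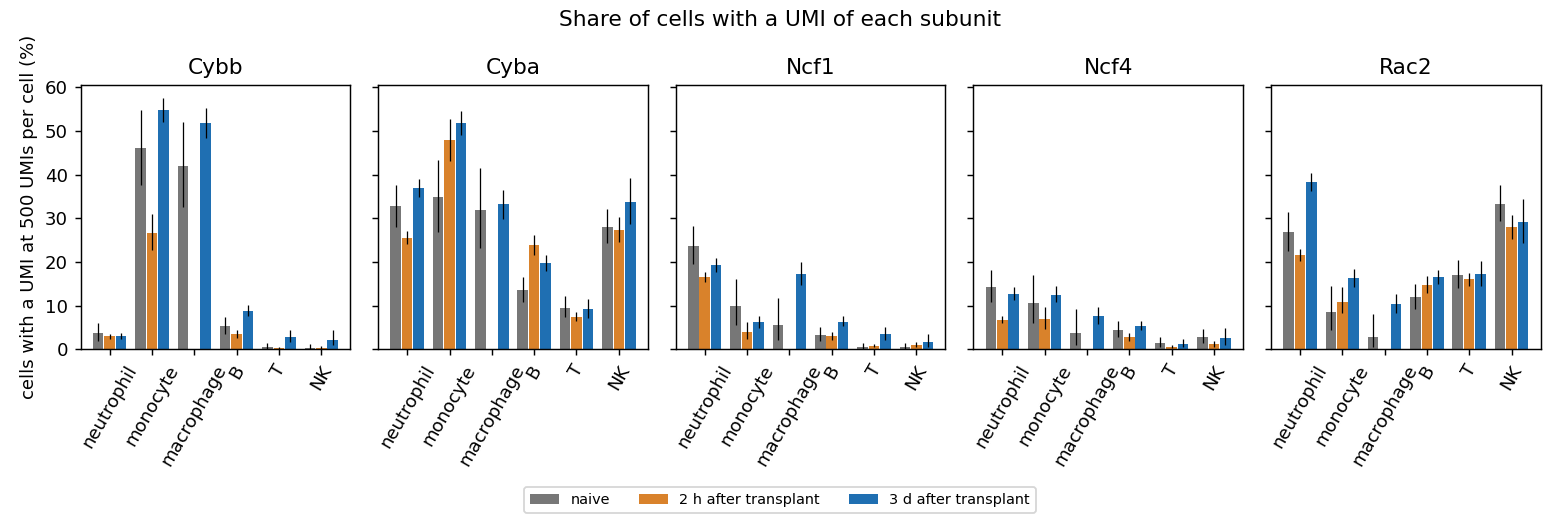
Percent of cells with at least 1 UMI of each subunit gene after thinning every cell to 500 UMIs, by lineage and library, with exact binomial 95% intervals. Cybb is seen in 26.7% to 54.8% of monocytes but in 2.95% to 3.61% of neutrophils.

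Subunit levels also differed between clusters of one lineage in one library. At 2 hours, neutrophils fell into a cluster led by inflammatory genes such as Cxcl3, Il1rn and Nlrp3 (2925 cells) and one led by granule genes such as Ngp, Camp and Ltf (1097 cells). Cybb was 60.3 CPM in the first and 97.6 CPM in the granule gene cluster, a log2 ratio of -0.69 (-1.07 to -0.31). Rac2 was 445 and 608 CPM (-0.45), and Ncf1 was 426 and 368 CPM (0.21, interval 0.04 to 0.39). The cluster with granule genes held more of the membrane core and of Rac2, and the inflammatory one slightly more of the organizer. For Ncf4 the interval included 0 (-0.18 to 0.41).

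At 3 days, nonclassical monocytes held more Cybb than classical ones, 2039.5 against 1393.9 CPM, and less Ncf4, 204 against 287 CPM. Their Ncf1 and Rac2 levels did not differ beyond their intervals. Macrophages of the cluster led by Saa3 and Arg1 held 1987.4 CPM of Cybb and 443 CPM of Ncf1, against 774 and 280 CPM in the C1q cluster, log2 ratios of 1.36 (1.29 to 1.43) and 0.66 (0.55 to 0.78). Cyba was nearly equal in these clusters, at 846 and 840 CPM. Cybb was therefore higher in nonclassical monocytes and in macrophages of the Saa3 and Arg1 cluster than in the other 3-day cells of their lineages. Since members were among the genes used to form these clusters, the values describe the clusters and do not test such a difference.

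**Figure D5:**
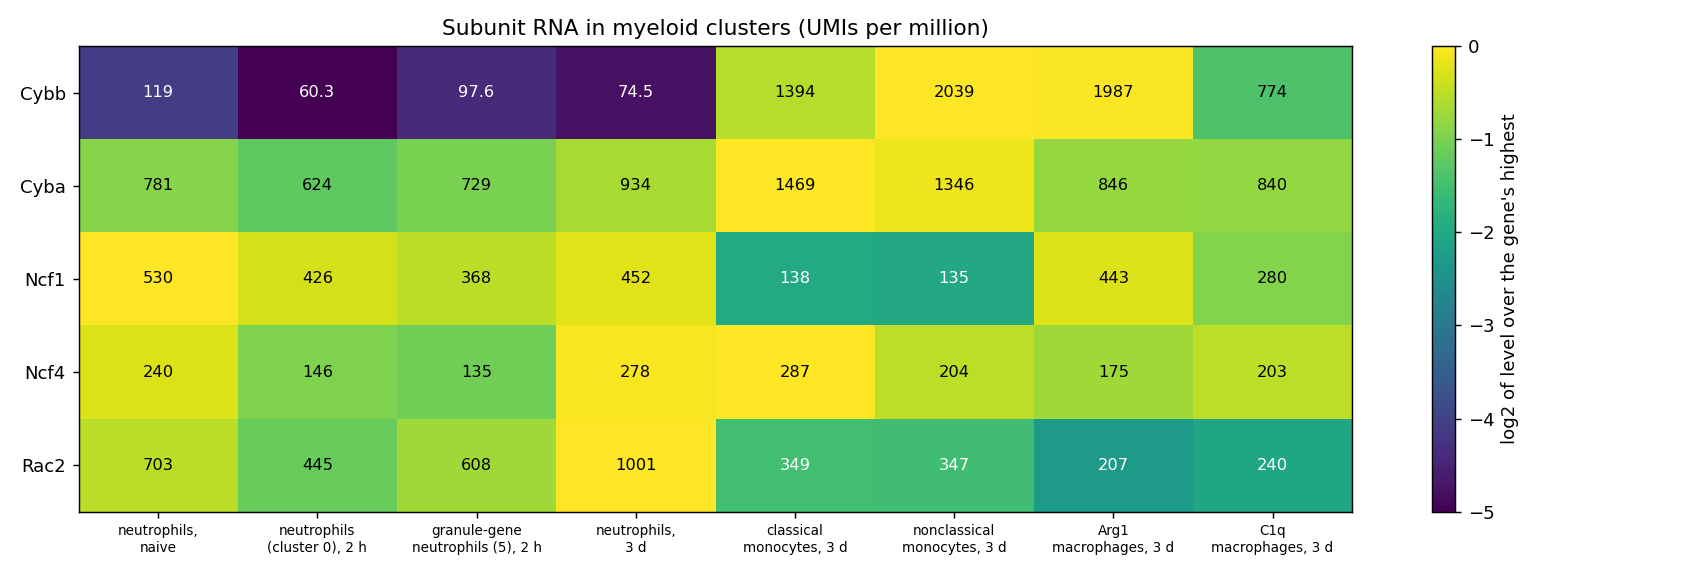
Level of each subunit gene (numbers, CPM) in 8 myeloid clusters, each in the library that holds most of it, coloured by the log2 of the level over the highest of the 8 for that gene. Cybb is brightest in the nonclassical monocytes and the macrophages led by Saa3 and Arg1 (Arg1 macrophages) at 3 days, and Ncf1 in naive neutrophils.

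The genes that act with the subunits were taken from 6 fixed lists of 55 genes in all. The list of NADPH supply includes genes of the non-oxidative branch of the pentose phosphate pathway. Of its genes 4 of 7 with enough UMIs were over 2-fold higher in neutrophils at 3 days than at 2 hours and 0 lower. Their median log2 ratio was 1.16 against 0.25 over all genes tested, of which 15% were over 2-fold higher. Pgd, 6-phosphogluconate dehydrogenase of the pentose phosphate pathway, was at 332 CPM at 3 days and 85.5 CPM at 2 hours, a log2 ratio of 1.96. G6pdx, which encodes its rate-limiting enzyme, was at 76.6 and 26.0 CPM, a log2 ratio of 1.56. Rpia and Tkt, of the non-oxidative branch, had log2 ratios of 1.31 and 1.16. From the naive library to 2 hours, 5 genes of this list had a median log2 ratio of -0.69 in neutrophils, against -0.22 over all genes. Relative to genes of like intronic length it was -0.71. The ratios of 3 days to 2 hours share that low 2-hour level.

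Of 9 complex partners, 3 were over 2-fold higher in neutrophils at 3 days than at 2 hours and 0 lower, beside 15% of all genes, with a median log2 ratio of 0.51 against 0.25. Coro1a, an actin-binding protein that associates with p40phox, had a log2 ratio of 1.30. Cybc1, a chaperone of the membrane core, was at 45.7 and 18.9 CPM (1.28), and Arhgdib, whose product holds Rac in the cytosol, had a log2 ratio of 1.19. Rac1, a related GTPase present in most cells, was at 289, 293 and 418 CPM in naive, 2-hour and 3-day neutrophils, and was thus highest at 3 days.

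Of 17 activating kinases and exchange factors, 6 were over 2-fold higher in neutrophils at 3 days than at 2 hours and 0 lower, beside 15% of all genes, with a median log2 ratio of 0.85 against 0.25. Plcg2, a phospholipase that yields activators of protein kinase C, was at 80.3 and 14.9 CPM (2.43), and Prkcb, a protein kinase C isoform that phosphorylates p47phox, at 156 and 41.2 CPM (1.93). Of 5 priming and triggering receptors 1, the integrin chain Itgb2, was over 2-fold higher, with a log2 ratio of 1.08, and the median was -0.29, the formyl peptide receptor Fpr1 being the lowest at -0.93. Spi1, which encodes PU.1, was at 962 CPM at 3 days and 560 CPM at 2 hours, a log2 ratio of 0.78, and Cebpe, a granulocyte factor, was the only one of 5 transcription factors over 2-fold higher. None of the 9 genes of other NADPH oxidases reached 50 UMIs over the neutrophils of both libraries.

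From the naive library to 2 hours, 9 of 17 kinases and exchange factors were over 2-fold lower in neutrophils, with a median log2 ratio of -1.29 against -0.22 over all genes, of which 22.7% were over 2-fold lower. Of these 17 genes 11 have 50 kb or more of introns, and relative to genes of like intronic length the median was -0.43. In monocytes from 2 hours to 3 days, 3 of 7 genes of NADPH supply were over 2-fold higher, G6pdx at 1.34, Rpia at 1.5 and Tkt at 1.05, as were 2 of 9 complex partners and 5 of 17 kinases and exchange factors, beside 16.2% of all genes. Tiam1, a Rac exchange factor, had the highest log2 ratio of these at 2.05, and Irf8, a transcription factor of the monocyte lineage, was at 117 and 35.1 CPM (1.73). Fpr1 was again the lowest of the receptors, at -1.92.

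Over the 17 profiles of a lineage in a library with at least 50 cells, the genes most like each subunit by Pearson's r of log2(CPM + 10) differed among subunits. For Cybb they were Ctsz (0.955), Apoe (0.951) and Rassf4 (0.947), and for Cyba Rnf130 (0.95), Pik3cg (0.929) and Lamtor4 (0.918). For Ncf1 they were Ehd1 (0.983), Gsn (0.952) and Pira2 (0.943), for Ncf4 Arid3a (0.960), Aldh2 (0.924) and Slc2a6 (0.919), and for Rac2 Hmgb2 (0.927), Cnn2 (0.910) and Rb1cc1 (0.867). Among the subunits themselves, r was 0.80 for Ncf1 with Ncf4, 0.75 for Cyba with Ncf4, 0.63 for Cybb with each of Cyba, Ncf1 and Ncf4, and -0.66 for Cybb with Rac2. The profiles share libraries and their depth, and these values describe 6252 genes without a test.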

How the data were processed

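Single-cell suspensions of 3 pooled, CD45.1-sorted mouse lung samples were sequenced by the authors. The deposited values were raw UMI counts of genes in single cells. Per the file headers, Cell Ranger 7.1.0 wrote the naive table and version 6.0.0 both transplant tables. The submitters' processing notes name Cell Ranger 6, Seurat 4 and mm10. The handling of intronic reads was not given in the sources used here. Library totals were 28538529, 10749100 and 70750470 UMIs in the naive, 2-hour and 3-day libraries. Counts of 277 antibody features in the transplant libraries were not used, and 0 columns of values were left unmapped.

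The study's limits on cells were applied (over 200 and under 6000 genes, mitochondrial share under 10%, UMIs under 25000). Counts were normalized with sctransform 0.4.2 and clustered in Seurat 5.3.0 (R 4.3.3) on 30 principal components at a resolution of 0.8, without integration. The 3000 variable genes used included 2 members, and in an alternative the members and list genes were left out. Clusters were named from marker genes by the median log2 ratio of CPM plus 10 to the remaining cells of their libraries, where it and at least 3 markers exceeded 1. Doublets called by Scrublet (scanpy 1.11.5) were kept, and removed in an alternative.

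UMIs were summed per library and lineage in Python 3.11.15 with numpy 2.4.6, scipy 1.17.1 and pandas 2.3.3. Levels carry exact Poisson intervals, log2 ratios of levels exact binomial intervals conditional on the total count, and shares exact Clopper-Pearson intervals. Genes with at least 50 UMIs over both sides formed the background. Ratio code was tested on simulated data. Gene coordinates and intronic lengths were from GENCODE vM21 on GRCm38. Cells were not treated as replicates, and the 3 libraries give no spread between animals.

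The members, marker genes and lists were chosen with earlier results of these data known. Of the list genes, 1 is not reported here by name. Named genes were the 5 members, the genes of each list with the largest ratios in each direction, and the 3 genes with the highest r to each member among those with a mean of at least 20 CPM. The promoter motif, the limit of 5 Cybb UMIs and 5 of the alternatives were chosen after seeing the data.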

Additional observations from a re-analysis of the deposited data

Results flagged for a closer look

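The log2 ratio of 2 hours to naive had opposite signs in different lineages for 4 subunits. For Cybb it was 1.53 in NK cells, which rests on 11 and 15 UMIs, and -1.23 in monocytes. For Cyba it was 0.64 in B cells and -0.31 in neutrophils. For Ncf1 it was 1.5 in NK cells, from 28 and 39 UMIs, and -0.37 in neutrophils. For Rac2 it was 0.19 in B cells and -0.53 in neutrophils. In NK cells Ncf1 stood at 1.73% of its neutrophil level in the naive library and 6.31% at 2 hours, beside 0.283% and 3.85% for S100a8. From 2 hours to 3 days, Cyba was at 0.51 in neutrophils and -0.33 in B cells. Each lineage had 1 library per condition, and the differences between lineages were not tested.

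Outside the 6 lineages, cells with basophil or mast cell markers held 1831.2 CPM of Ncf1 at 3 days, above 1287.0 CPM in the 20 such cells of the naive library. After thinning to 500 UMIs per cell, 55.0%, 44.1% and 55.4% of them had an Ncf1 UMI in the naive, 2-hour and 3-day libraries.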

How the results depend on the processing

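Each of 45 log2 ratios of a subunit was recomputed under 12 alternatives. The largest cluster alone, lineages for unnamed clusters, and, as separate values, leaving out cells rich in Cybb, nonclassical monocyte clusters alone and subtracting the median of like intronic length were chosen after seeing the data. Of the 18 ratios over 2-fold, 17 kept their sign in all 12 alternatives and 11 stayed over 2-fold in all. The other 7 were Cybb in neutrophils (6 of 12) and monocytes (10) from naive to 2 hours and, from 2 hours to 3 days, Rac2 in neutrophils (8), Cybb and Ncf4 in monocytes (11 each), and Ncf1 (8) and Ncf4 (10) in T cells. The exception in sign was Cybb in neutrophils from naive to 2 hours. It reversed to 0.10, from 24 and 5 UMIs, after thinning to 500 UMIs and removal of cells with other lineages' markers. Leaving out cells with 5 or more Cybb UMIs also turned that comparison, to 68.7 CPM at 2 hours against 47.4 CPM in the naive library. That limit is set on Cybb itself and is reached less easily in the shallow 2-hour cells.

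The median over the subunits in neutrophils from naive to 2 hours, -0.53, was -0.32 with the median of all genes subtracted, -0.35 without cells of mixed markers and -0.66 in the largest cluster alone. In neutrophils from 2 hours to 3 days, 0.51 became 0.78 without a cell filter, 0.67 with cells called one by one, 0.27 with the median subtracted, 0.33 without mixed cells and 0.58 in the largest cluster. In monocytes over that interval, 0.49 became 1.03, 1.02 and 0.82 under no filter, cells called one by one and mixed cells removed. In B cells over that interval, no alternative moved the median of 0.60 beyond its counting interval. Neutrophils to T cells at 2 hours, 3.22, became 2.67 with CPM outside ribosomal and similar genes, 3.91 with the median subtracted and 4.23 without mixed cells. Monocytes to neutrophils at 3 days, -0.05, became -0.54 without a filter, -0.62 with cells called one by one, 0.088 at a resolution of 1.2, -0.20 as a mean over cells, -0.24 after thinning, 0.21 by the other CPM, -0.95 with the median subtracted, -0.81 without mixed cells and 0.044 in the largest cluster. The cause of these moves was not tested.

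No paired analysis was possible because each condition had 1 library. No library was left out for the same reason. Calling lineages from antibody counts was not run, as the 277 antibody names hold no Ly-6G or NK-1.1. Depth limits the 2-hour values most, with a median of 878 UMIs per kept cell.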

Other observations

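A cluster at 3 days that took no name (149 cells, led by Tnf, Ccl3 and Siglecf) held 1206.2 CPM of Ncf1 (95% interval 1124.3 to 1292.5), 198 CPM of Cybb (165 to 235) and 815 CPM of Rac2. An unnamed cluster of 367 cells at 2 hours, led by Ccl4, Ccl3 and Cxcl3, held 387 CPM of Ncf1 and 84.2 CPM of Cybb. Another, led by heat shock genes and surfactant genes of lung epithelium, held 323 CPM of Cybb in 308 cells at 2 hours and 1302.9 CPM in 86 cells at 3 days. None of these was part of any lineage sum, and the closest lineage was given to them only as an alternative chosen after seeing the data.

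Endothelial cells carry no CD45. Cells of a cluster with endothelial markers held 10.9 CPM of Rac2 in the naive library, 15.1 CPM at 2 hours from 1 UMI, and 113 CPM (88.9 to 143) at 3 days. Cybb in them was at 7.25, 90.7 and 298 CPM, from 2, 6 and 192 UMIs. Of the 297 cells of this cluster at 3 days, 9 held 43.8% of Cybb UMIs and the level without them was 187 CPM. Of these 9 cells 33.3% were called doublets. The 297 cells had a median of 791 UMIs, against 5716.5 over the kept cells of that library. At a resolution of 1.2, only 168 3-day cells lay in the endothelial cluster. The number was also 168 with members and list genes left out of the clustering. For part of the 297 cells the name thus depended on the clustering. Relative to macrophages at 3 days, the 297 cells held Cybb at 18.2%. The myeloid genes Lyz2, Apoe, C1qa, C1qb and C1qc stood at 31.3%, 15.2%, 10.8%, 8.71% and 8.71%. The part of other cells' RNA in these levels was not tested.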
